A study of Mus musculus with 24 samples.

Results

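The 8 genes described here, Pck1, G6pc, Fbp1, Pcx, Pklr, Irs1, Irs2 and Foxo1, encode enzymes of glucose production and use in the liver and parts of the insulin signalling chain that controls them. They were chosen by name, and a probe was taken for a gene where the gene name in the array files was equal to its symbol. Of the 8, 7 had a probe, with 9 probes among the 41174 on the array. Irs2 had no probe under its symbol and was not analysed here. Irs1 and Foxo1 had 2 probes each, and the probe with the higher mean intensity is the main probe below.

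RNA was taken from the whole liver and whole colon of 12 female wild type C57BL/6 mice at 12 weeks of age, 6 on each of 2 diets, which gave 24 arrays with 6 in each tissue and diet. The mothers of all 12 mice ate a high-fat diet with little selenium and folate from before mating until weaning. From weaning on, the HF-low-low mice stayed on this diet and the HF-low-suf mice ate one as rich in fat but with enough of both nutrients, so no mouse was on a low-fat diet or from a mother with sufficient supply. The mice were fasted and then fed again before the tissues were taken, and the sources used here do not say which mice were littermates. Each array set the RNA of 1 tissue of 1 mouse, labelled with Cy3, against the same reference labelled with Cy5, with no dye swap. The paper describes this reference as a pool of liver and intestinal RNA from all the mice. A value is the log2 ratio of sample to reference for a probe. With 1 dye orientation a value of 0 need not be the level of the pool, so the values of a probe are compared between arrays and never with those of another probe.

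Gluconeogenesis makes new glucose from lactate, amino acids and glycerol, mainly in the liver during fasting. Pyruvate carboxylase (Pcx) and phosphoenolpyruvate carboxykinase (Pck1) carry pyruvate to phosphoenolpyruvate, fructose-1,6-bisphosphatase (Fbp1) acts further on, and the catalytic subunit of glucose-6-phosphatase (G6pc) releases free glucose, while liver pyruvate kinase (Pklr) runs the last step of glycolysis in the opposite direction. Glucagon, through cAMP, induces Pck1 and G6pc, and insulin, through Irs1, Irs2 and the kinase Akt, keeps the transcription factor Foxo1 out of the nucleus and so lowers them, whereas sugar induces Pklr.

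The stretches before the start sites of 3 of these genes are shown because they are textbook examples of these controls and because Pck1 and Pklr were the members with the widest spread among the livers. They are the 250 bases upstream of the RefSeq start on the plus strand of build GRCm38.p6, chr2:173152823-173153072 for Pck1, chr11:101367466-101367715 for G6pc and chr3:89136373-89136622 for the downstream of the 2 starts of Pklr. Capitals mark a cAMP response element (TTACGTCA) in Pck1, a FoxO core (CAAAACA, here on the other strand) in G6pc and a carbohydrate response element in Pklr.
Pck1: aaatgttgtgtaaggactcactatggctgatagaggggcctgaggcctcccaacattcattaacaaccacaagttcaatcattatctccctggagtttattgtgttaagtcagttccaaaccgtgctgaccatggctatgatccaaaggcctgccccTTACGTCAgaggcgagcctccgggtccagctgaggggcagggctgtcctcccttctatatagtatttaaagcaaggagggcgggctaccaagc
G6pc: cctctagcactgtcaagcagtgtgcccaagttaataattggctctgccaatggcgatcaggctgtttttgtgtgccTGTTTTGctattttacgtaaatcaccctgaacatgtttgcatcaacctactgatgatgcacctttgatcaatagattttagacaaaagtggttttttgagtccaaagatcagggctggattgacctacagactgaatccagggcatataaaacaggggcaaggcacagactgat
Pklr: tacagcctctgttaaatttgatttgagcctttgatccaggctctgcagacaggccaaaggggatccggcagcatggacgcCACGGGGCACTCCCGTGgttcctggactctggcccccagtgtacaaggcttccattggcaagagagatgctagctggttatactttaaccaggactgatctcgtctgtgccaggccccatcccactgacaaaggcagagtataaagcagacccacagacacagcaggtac

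Both strands of the 250 bases before all 32851 starts in the RefSeq table were searched for these motifs and for TGACGTCA and CACGTG, none of which overlapped in the 3 stretches shown. TTACGTCA was found in 0.447% of them, TGACGTCA in 1.55%, CAAAACA in 5.56%, CACGTG in 6.02% and the carbohydrate response element in 0.0974%. All 8 genes were in the table, with 10 starts, and 6 of those held at least 1 of the motifs. Irs1 and Irs2 each held both CAAAACA and CACGTG, and Pcx held CACGTG. These matches describe letters in the sequence, and no binding was measured.

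On the arrays as a whole, Cy3 signals had a median of 3.77 to 7.22 times their local background, and the number of arrays limits the precision. The correlation of log2 ratios between replicates of a group lay between 0.655 and 0.938. All 5 hepatocyte markers with a probe were higher in liver and all 6 colon epithelium markers were lower there, and the mean of the hepatocyte list was 1.19 to 1.91 in livers and -4.26 to -3.72 in colons. The mean of 6 skeletal muscle markers was -5.31 to -3.20 in livers and -5.62 to -4.62 in colons. That of 3 kidney markers was -4.71 to -3.04 and -5.07 to -4.11. Both lists thus lay far below 0 in both tissues, and the make-up of the reference was not tested. The mean of 6 adipose markers was 2.58 for HF-low-suf liver replicate 1 and -0.25 for HF-low-suf liver replicate 2, against -1.83 to -0.82 in the HF-low-low livers. The diet differences in liver, the pairs of members and the relations with array measures were therefore also computed without those 2. In addition, 2 arrays had a bright reference channel, HF-low-suf colon replicate 5 with a Cy5 signal 18.2 times background and HF-low-suf liver replicate 4 with 12.7 times and 3797 outlier spots, against 5.43 to 7.62 times and 116 to 333 outlier spots on the other arrays. Each of the 6 slides, numbered as the replicates, held 1 array of every group, and slides 1 to 3 and 4 to 6 were scanned on different days.

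The comparison of liver with colon asked where these genes are expressed, within the same mice. The main probes of Pck1, G6pc, Fbp1, Pcx, Pklr and Irs1 were higher in liver, and that of Foxo1 was not past the test. The call was an adjusted P under 0.05 (limma with Benjamini-Hochberg adjustment over all 41174 probes, the mouse as a random block), and 19.4% of all probes were higher in liver and 19.0% lower. Thus 6 of 7 members were higher and none was lower, with a median log2 difference of 2.62 over the 7 against 0.02 over all probes. For 5 of the 7, all livers lay above all colons, as did 5.97% of all probes, while for no member all livers lay below all colons, as for 6.50% of probes. In bulk RNA, fewer cells of a type and less RNA per cell cannot be told apart.

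**Figure D1:**
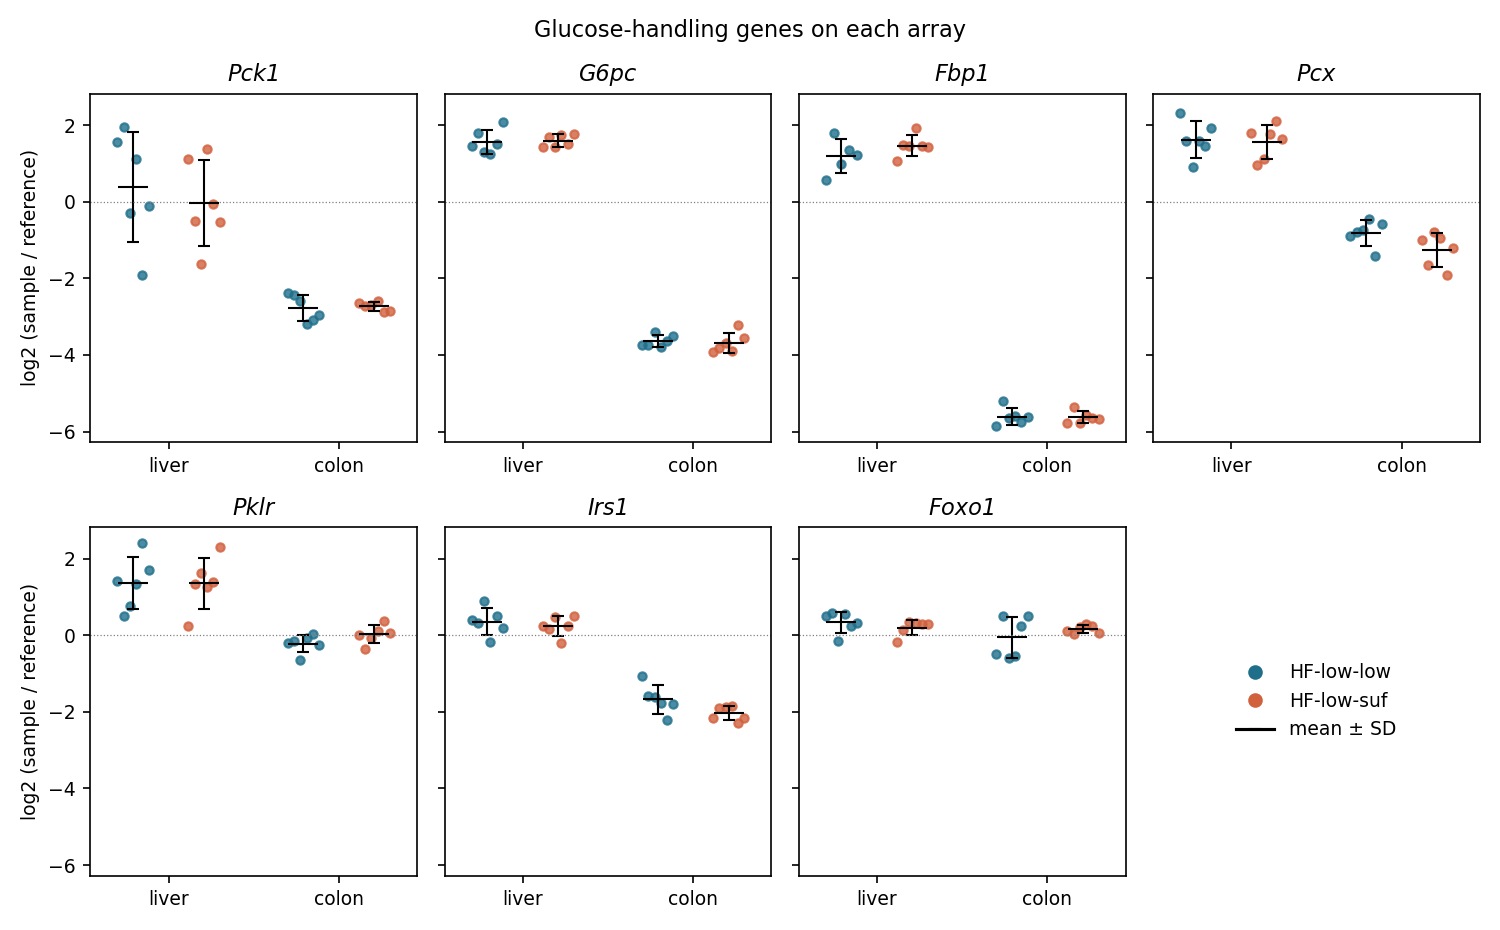
Log2 ratio of sample to reference (vertical axis) of the main probe of 7 genes on each array, by tissue and diet. Points are mice (6 per group, 5 for Fbp1 in HF-low-low livers), and black marks are the mean ± SD. Liver and colon points are separate for every gene but Pklr and Foxo1, the diets overlap throughout, and the livers spread widely for Pck1.

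Pck1, the enzyme usually taken as the gate of gluconeogenesis, was measured by a probe at chr2:172903552-172903615 (plus strand; all probe positions are in build mm7, as the array files give them). Its log2 ratio in HF-low-low livers was -1.90 at the lowest, 0.50 at the median and 1.96 at the highest, and in HF-low-suf livers -1.61, -0.27 and 1.37. In the colon the values were -3.19, -2.77 and -2.39 for HF-low-low and -2.89, -2.70 and -2.59 for HF-low-suf. The colons thus sat close together and below every liver, whereas the livers were far apart. Liver exceeded colon by 2.93 ± 0.31 (SE, n = 12 mice) on the log2 scale, 7.63-fold, with an adjusted P of 1.08e-08 by limma. The difference had the same sign in 12 of 12 mice and ranged from 1.08 to 4.40 (P = 0.000488, two-sided exact sign permutation test, the smallest that 12 mice allow).

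G6pc, which completes glucose release, was measured at chr11:101486672-101486731. Its log2 ratio was 1.25, 1.48 and 2.09 (lowest, median, highest) in HF-low-low livers and 1.43, 1.60 and 1.77 in HF-low-suf livers. The colons were at -3.79, -3.68 and -3.39 for HF-low-low and -3.92, -3.75 and -3.22 for HF-low-suf. Every liver stood far above every colon, with little spread in either tissue. The log2 difference was 5.24 ± 0.10 (SE, n = 12 mice), 37.8-fold, with an adjusted P of 3.57e-25 by limma and the same sign in 12 of 12 mice.

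Fbp1, which acts against phosphofructokinase, was measured by a probe that the files place on chromosome 13_random from 822321 to 822380. The spot of HF-low-low liver replicate 6 was marked as an outlier, with a saturated reference channel, and was left out. The other HF-low-low livers were at 0.58, 1.23 and 1.80 and the HF-low-suf livers at 1.05, 1.46 and 1.93, while the colons were at -5.86, -5.63 and -5.21 and at -5.78, -5.65 and -5.35. No liver came near a colon. The log2 difference was 6.95 ± 0.11 (SE, n = 11 mice), 124-fold, with an adjusted P of 7.97e-26 by limma and the same sign in 11 of 11 mice.

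Pcx, which supplies oxaloacetate from pyruvate, was measured at chr19:4516443-4516502. It was at 0.90, 1.58 and 2.31 in HF-low-low livers and 0.96, 1.71 and 2.10 in HF-low-suf livers. The colons lay at -1.42, -0.77 and -0.44 for HF-low-low and -1.90, -1.10 and -0.78 for HF-low-suf, again below every liver. Liver exceeded colon by 2.62 ± 0.15 (SE, n = 12 mice), 6.16-fold, with an adjusted P of 6.55e-14 by limma.

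Pklr, the glycolytic member, was measured at chr3:89271395-89271913 and was well above background on 11 of 12 arrays in each tissue. Its livers spanned 0.52, 1.38 and 2.41 for HF-low-low and 0.24, 1.36 and 2.31 for HF-low-suf. Its colons spanned -0.64, -0.18 and 0.02 and -0.35, 0.03 and 0.37, so the lowest liver fell inside the range of the colons. That liver was HF-low-suf replicate 1, the one with the highest adipose mean and the only liver where the Pklr probe was not well above background. Within each mouse, however, liver was above colon in 12 of 12, by 0.22 to 2.39. The mean difference was 1.46 ± 0.18 (SE, n = 12 mice), 2.75-fold, with an adjusted P of 9.34e-08 by limma.

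Irs1, an adaptor that links the insulin receptor to its kinases, was measured by a main probe at chr1:82447810-82447869 (minus strand). It was at -0.18, 0.36 and 0.89 in HF-low-low livers and -0.20, 0.25 and 0.52 in HF-low-suf livers, and at -2.21, -1.69 and -1.06 and -2.29, -2.02 and -1.84 in the colons. All livers were above all colons, with a difference of 2.15 ± 0.12 (SE, n = 12 mice), 4.44-fold, and an adjusted P of 1.03e-14 by limma. The other Irs1 probe was well above background on 1 of 12 arrays in each tissue, and no fold is given for it.

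Foxo1, the insulin-regulated activator of Pck1 and G6pc, was measured at chr3:52472787-52472846. It was at -0.14, 0.41 and 0.58 in HF-low-low livers and -0.18, 0.29 and 0.35 in HF-low-suf livers, and at -0.58, -0.12 and 0.51 and 0.03, 0.16 and 0.29 in the colons. The tissues overlapped. The difference of 0.22 ± 0.12 (SE, n = 12 mice) had a 95% confidence interval from -0.02 to 0.47 and an adjusted P of 0.160 by limma, was positive in 9 of 12 mice, and turned to -0.20 with median centring in place of loess. The second Foxo1 probe, at chr3:52475893-52475952, gave 0.18 (adjusted P = 0.168 by limma). The HF-low-low colons fell into 3 between -0.58 and -0.49 and 3 between 0.25 and 0.51 on the main probe, a spread that the second probe, at -0.02 to 0.38 in the same colons, did not show.

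**Figure D2:**
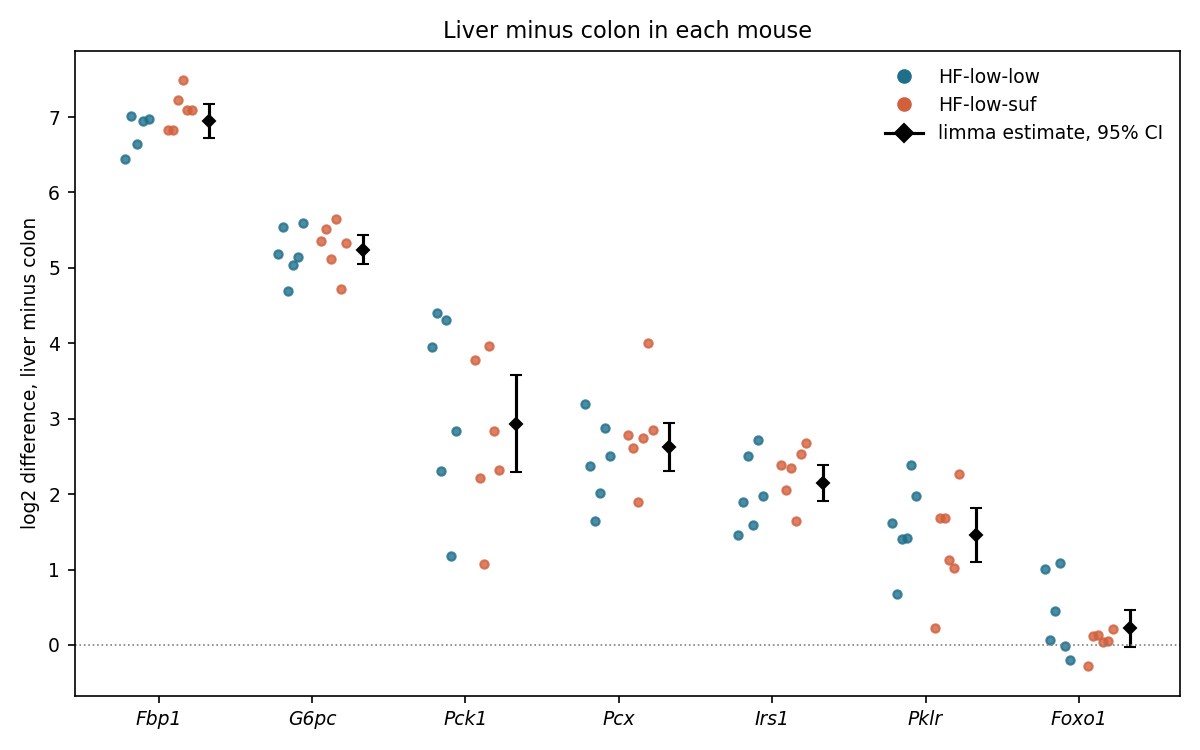
Difference of the log2 ratio between liver and colon of the same mouse (vertical axis) for 7 genes, with 1 point per mouse coloured by diet and a diamond for the limma estimate with its 95% confidence interval. Every point is above 0 for 6 genes, and for Foxo1 9 of 12 are.

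The order of the 4 groups was the same in outline for the 7 genes: both liver groups had higher means than both colon groups. Neighbours in that order did not overlap only between the lower liver group and the higher colon group, for Pck1, G6pc, Fbp1, Pcx and Irs1. Within the 2 scan days the difference between tissues was 2.91 to 2.96 for Pck1, 5.24 to 5.25 for G6pc, 6.83 to 7.12 for Fbp1, 2.41 to 2.83 for Pcx, 1.22 to 1.70 for Pklr and 2.11 to 2.19 for Irs1. With median centring the split of all called probes was 4521 higher and 9226 lower in liver, and with the signals processed by Feature Extraction 7573 and 11964, against 7993 and 7804 here. With the processed signals the median difference of all probes moved to -0.19, and the same 6 members were counted as higher under every scaling tried.

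To see how far the pattern holds in the rest of the pathway, 58 other genes of glucose metabolism with a probe were examined in 5 lists. Of these, 35 were higher in liver, 14 lower and 9 not called, with a median log2 difference of 0.58. Over all probes 19.4% were higher and 19.0% lower. Glycogen enzymes were higher in liver in 7 of 7, with the liver glycogen synthase Gys2 at 6.03. Of 6 genes of glucose entry and phosphorylation, 4 were higher, with the glucokinase regulator Gckr at 7.13 on a probe well above background in 3 of 12 colons, and 2 were lower, with the hexokinase Hk1 of most tissues at -3.01. Of 18 other enzymes of gluconeogenesis and glycolysis, 9 were higher and 6 lower.

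Among the lower was Fbp2, the muscle-type counterpart of Fbp1, at -3.35 on a probe well above background in 3 of 12 livers. Of 13 signalling genes, 5 were higher, with the glucagon receptor Gcgr at 6.64, 3 were lower, with the kinase Akt1 at -0.53, and 5 were not called. Of 14 transcription factors and coactivators, 10 were higher, with Creb3l3 at 3.91, and 3 were lower, with the coactivator Ppargc1a at -1.08. The lists thus did not all move one way, and isoenzymes known from other tissues were among the genes lower in liver.

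**Figure D3:**
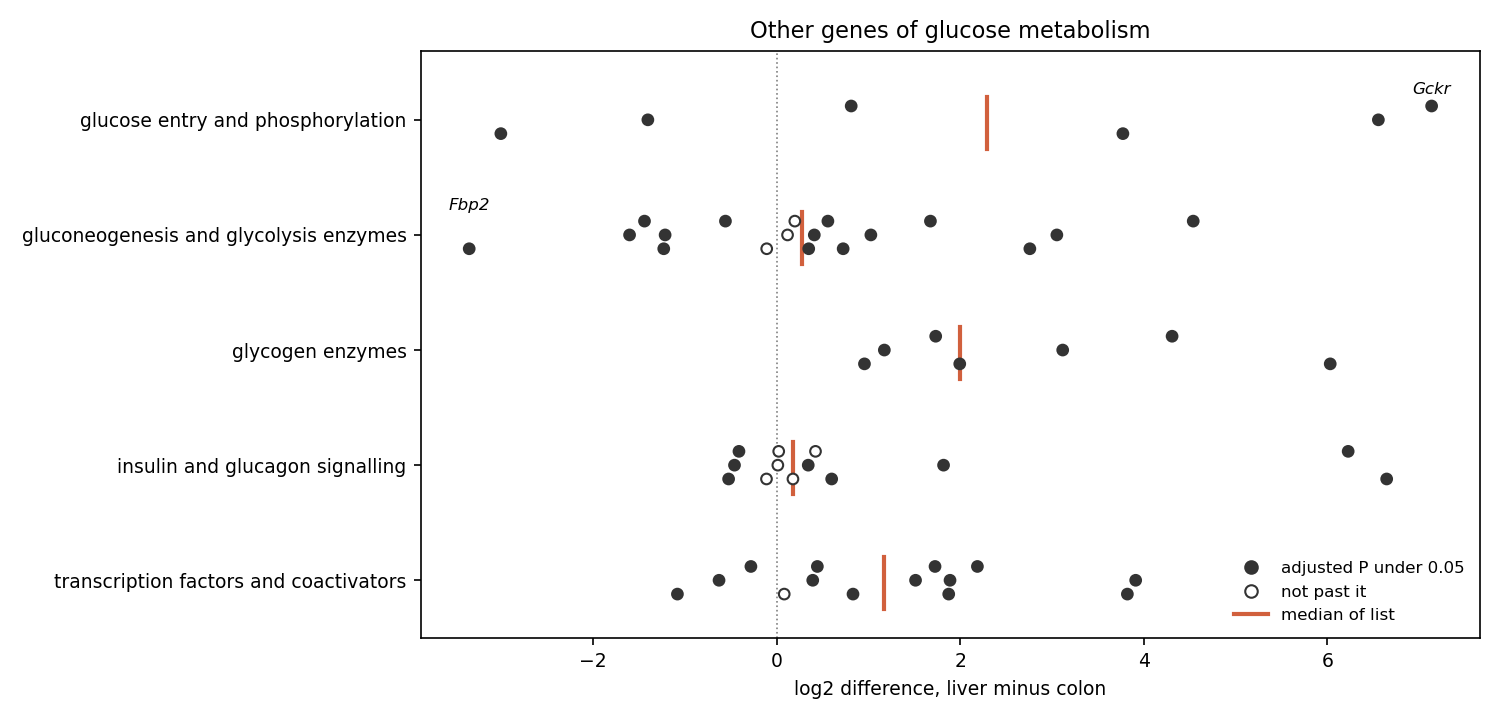
Liver minus colon difference of the log2 ratio (horizontal axis) for 58 genes of glucose metabolism in 5 lists, 1 point per gene, filled where the adjusted P was under 0.05. The orange bar is the median of the list, and the points at both ends are named, Fbp2 at -3.35 and Gckr at 7.13, each well above background on 3 of 12 arrays of the tissue where it was lower.

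The comparison of the diets asked whether selenium and folate after weaning changed these genes. No member passed the study's threshold of an unadjusted P under 0.01 with a fold over 1.5 in either tissue, which 0.109% of all probes passed in liver and 0.168% in colon. None of the 7 had an unadjusted P under 0.05 by limma in either tissue, and for none were the 6 mice of 1 diet all above those of the other, as they were for 0.0267% of probes in liver and 0.0777% in colon. With adjustment no probe on the array was called in either tissue. An unadjusted P under 0.05 by limma was found for 893 of 41174 probes in liver and 1230 in colon, in both fewer than the 1 in 20 that chance gives. Differences are HF-low-suf minus HF-low-low with the sample in Cy3, as the labels state, and this sign is opposite to that in the study's lists of changed genes. Past the study's threshold 37 probes were higher on HF-low-suf and 8 lower in liver, and 66 and 3 in colon. The paper reports most of its changed genes as decreased in both tissues. With the paper's sign every diet difference given here would be reversed, and which sign is right was not tested.

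In liver the differences ran from -0.42 for Pck1 to 0.28 for Fbp1, with a median of -0.06 against 0.00 for all probes. The Pck1 value was -0.88 without HF-low-low replicate 5 and -0.11 without HF-low-suf replicate 3. The Fbp1 value was 0.12 without HF-low-low replicate 1 and 0.43 without HF-low-low replicate 2. For Pck1, whose mean log2 ratio was 0.39 ± 1.44 (SD, n = 6) on HF-low-low against -0.03 ± 1.12 (SD, n = 6) on HF-low-suf, the 95% confidence interval was -1.78 to 0.93 (P = 0.554, two-sided exact permutation test over 924 assignments). The livers of each diet differed widely among themselves. The Pck1 difference was -1.41 within scan day 1, 0.56 within scan day 2, -0.42 with the scan day as a block and -0.60 without the livers of HF-low-suf replicates 1 and 2. Without those livers Fbp1 differed by 0.38 and Pklr by 0.28, and no member was called. With all livers G6pc differed by 0.03 with an interval of -0.30 to 0.37, and Pklr by 0.00 with an interval of -0.73 to 0.73.

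In colon the members nearest the threshold were Pcx and Irs1. Pcx had a mean of -0.81 ± 0.34 (SD, n = 6) on HF-low-low against -1.25 ± 0.44 (SD, n = 6) on HF-low-suf, a difference of -0.44 ± 0.21 (SE; P = 0.0887, two-sided exact permutation test). Irs1 had -1.67 ± 0.38 (SD, n = 6) and -2.03 ± 0.19 (SD, n = 6), a difference of -0.36 ± 0.17 (SE; P = 0.0476, two-sided exact permutation test, not adjusted for the 14 tests made). Without HF-low-low replicate 1 the Irs1 difference was -0.24, and without HF-low-suf replicate 5 it was -0.31 and that of Pcx -0.31. For both genes HF-low-suf was the lower array on 6 of 6 slides, but the ranges of the diets overlapped, and the adjusted P of each was 0.9998 by limma. The means of all 6 adipose markers also lay lower in HF-low-suf colons, with log2 differences from -0.71 for Plin1 (unadjusted P = 0.0437 by limma) to -0.13, none past the study's threshold. Over the 12 colons the Pcx ratio and the mean of the adipose markers gave r = 0.78 and rho = 0.61 (permutation P = 0.00195 and 0.0398, adjusted P for r 0.05005, just short of the threshold), with r = 0.49 when the 2 most distant colons were left out and 0.61 (adjusted permutation P = 0.445) without HF-low-suf replicate 5. For Irs1 the same measures were r = 0.41 and rho = 0.44 (permutation P = 0.181 and 0.155, adjusted P for r 0.537), with r = -0.12 and 0.13 when those colons were left out. The part of adipose RNA in either gene's values was not tested.

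**Figure D4:**
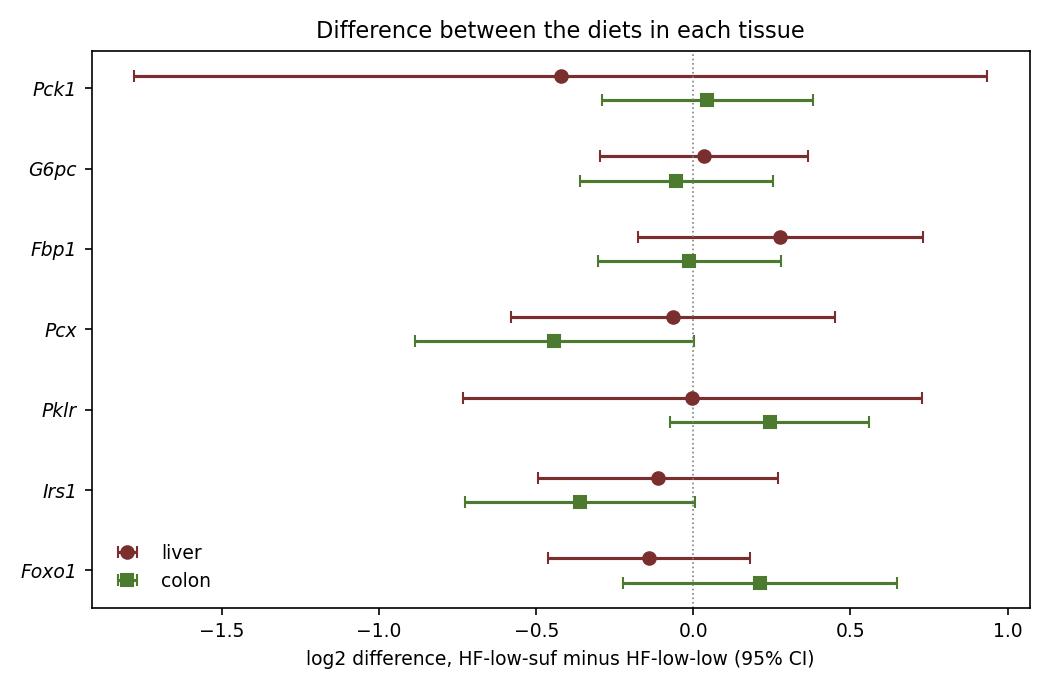
Difference between diets in log2 ratio, HF-low-suf minus HF-low-low (horizontal axis), with its 95% confidence interval from limma, for 7 genes in liver (circles) and colon (squares). The intervals all include 0, and that of Pck1 in liver is the widest, from -1.78 to 0.93.

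The diet difference in liver was set against that in colon, to ask whether the tissues responded differently. No member was called, and the smallest adjusted P was 0.870 by limma, for Foxo1, at -0.35 ± 0.24 (SE), which was -0.47 without HF-low-low replicate 6 and -0.21 without HF-low-low replicate 4. No probe on the array passed adjustment, and 2638 of 41174 had an unadjusted P under 0.05 by limma, more than 1 in 20. Among the pathway lists, no gene passed the study's threshold in either tissue. Gys2 in colon, at -0.44, was the only one with an unadjusted P under 0.05 by limma (0.00789).

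The livers of a diet differed more from one another in Pck1 than in any other member. The SD within a diet was 1.29 for Pck1, and its 12 livers spanned 3.86 on the log2 scale, or 14.5-fold, whereas the 12 colons had an SD of 0.26. Of the 9665 probes well above background on all livers, 0.393% varied more than Pck1 in liver, and the median SD was 0.26. Pklr came next, with an SD of 0.67 and 3.32% of probes above it, then Pcx with 0.46, Fbp1 with 0.37, Irs1 with 0.31, G6pc with 0.25 and Foxo1 with 0.24. The spread of Pck1 was 1.29 within scan day 1 and 1.28 within scan day 2, and 1.07 to 1.36 when each mouse was left out in turn.

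Co-variation over the livers was examined in the 21 pairs of the 7 members. No pair passed Benjamini-Hochberg adjustment (smallest adjusted P = 0.422, permutation test with 100000 resamples), and 2 had an unadjusted P under 0.05. Pck1 and Pklr gave r = -0.66 and Spearman's rho = -0.64 over 12 livers (permutation P = 0.0204 and 0.0293, adjusted P = 0.422 and 0.511). With the 2 livers most distant from the median Pck1 value left out, r was -0.41 (permutation P = 0.251), so the relation rested in part on those livers. It was -0.58 within scan day 1, -0.89 within scan day 2 and -0.67 both with the diet means removed and without HF-low-suf replicates 1 and 2.

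G6pc and Fbp1 gave r = 0.62 and rho = 0.59 over 11 livers (permutation P = 0.0402 and 0.0611, adjusted P = 0.422 and 0.511), and with r = 0.56 without the 2 farthest. Within the scan days r was 0.71 and 0.56. It was 0.60 without HF-low-suf replicates 1 and 2. Over all livers r turned to -0.22 when the excluded Fbp1 spot of HF-low-low replicate 6 was kept. Pck1 and G6pc, both targets of Foxo1 and cAMP, gave r = 0.04 and rho = 0.09 (permutation P = 0.891 and 0.783, adjusted P = 0.952 and 0.822). Over the colons 0 of 21 pairs passed adjustment, and between the liver and colon of the same mouse 0 of 7 members did.

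**Figure D5:**
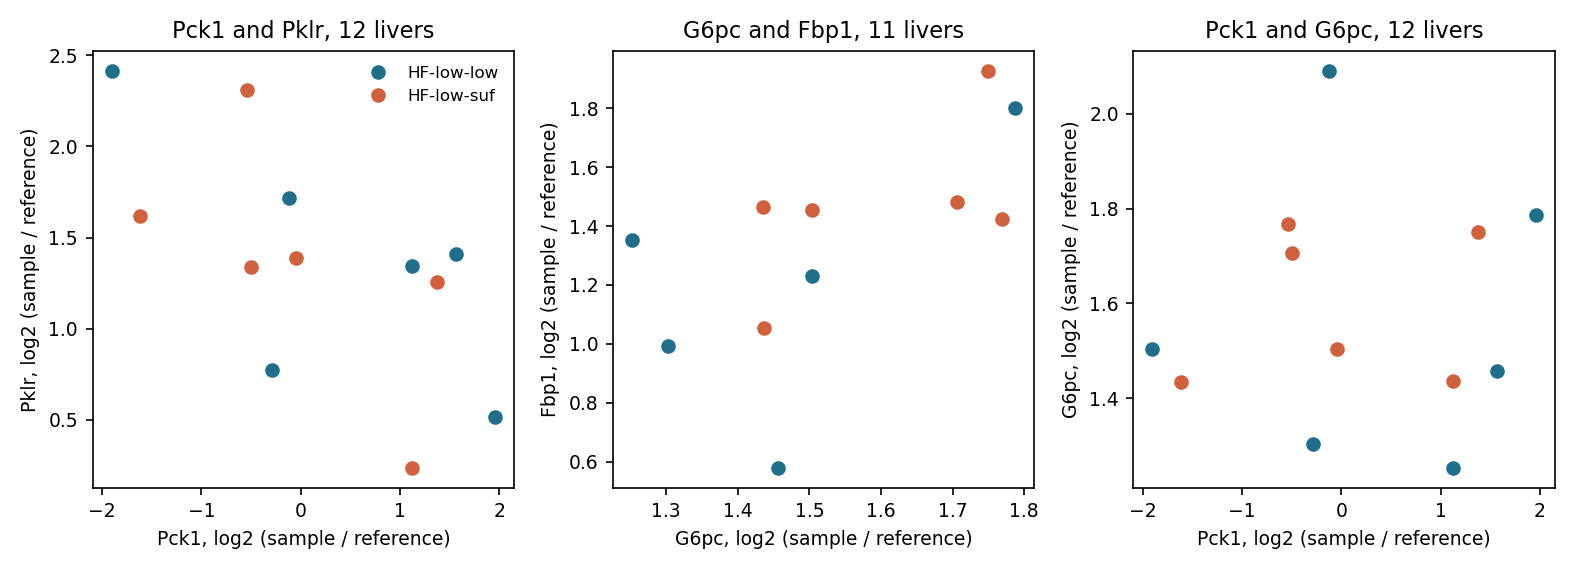
Log2 ratios of pairs of genes over the livers, 1 point per mouse coloured by diet. The correlation r is -0.66 for Pck1 and Pklr (12 livers), 0.62 for G6pc and Fbp1 (11 livers) and 0.04 for Pck1 and G6pc (12 livers), and none of the 21 pairs passed adjustment.

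The members were also set against 47 other pathway genes well above background on all livers. None of the 329 relations passed adjustment (smallest adjusted P = 0.0543), and 45 had an unadjusted P under 0.05. The relations named here were chosen after their values were seen and are given as a description over livers that share a reference and an array design. Pck1 gave r = -0.80 with Ppp1r3c, a targeting subunit that favours glycogen synthesis, and Pklr gave positive values with Ugp2 of glycogen synthesis (r = 0.85) and with Mlxipl, the sugar-responsive factor ChREBP (r = 0.81). These are not the only large values, since the highest r was 0.83 for Pcx and 0.82 for Fbp1, with genes not named here. The share of the 47 genes with r beyond 0.6 in size was above that of all probes for 4 members (21.3% against 14.96% for Pck1, 19.1% against 14.80% for Pklr, 10.6% against 3.64% for Foxo1, 2.13% against 1.96% for G6pc) and below it for 3 (17.0% against 27.3% for Pcx, 8.51% against 12.8% for Irs1, 6.38% against 9.32% for Fbp1).

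Over all probes well above background in every liver, the genes most like each member were listed by Pearson's r over the 12 livers (11 for Fbp1), as a description. For Pck1 they were Junb (0.93), Rsu1 (0.90) and 1500035H01Rik (0.89). For Pcx they were Cyp2d26 (0.95), Zfp523 (0.94) and Pvrl1 (0.94), and for Pklr Shmt1 (0.93), Ugt2b34 (0.92) and Cops5 (0.92). For Irs1 they were Hnrpll (0.90), Ppfibp1 (0.90) and Dmxl2 (0.89), and for Foxo1 they included Siae (0.84) and Abat (0.83). Without the 2 farthest livers r was 0.44 for Abat, with rho = 0.41 over all livers, and 0.86 for Siae. For the Irs1 genes rho was 0.66, 0.67 and 0.90 in the order named. The highest were Refbp2 (0.82) and Tpmt (0.77) for G6pc and 2410025L10Rik (0.89) and Psme2b-ps (0.89) for Fbp1, beside 1 probe each with no gene symbol. Between 9663 and 9665 probes were searched for each member.

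Each member was set against 11 measures of the arrays, among them the means of the marker lists, in 77 relations per tissue. In liver 1 passed adjustment, between Pcx and the hepatocyte list (r = 0.84, rho = 0.80, permutation P = 0.000400 and 0.00220, adjusted P = 0.0308 for r), with r = 0.74 without the 2 farthest livers. Without HF-low-suf replicates 1 and 2 it was 0.83 and no longer passed (adjusted permutation P = 0.167). In colon 2 passed, between G6pc and the lists of exocrine pancreas (r = 0.87, rho = 0.76, adjusted permutation P for r 0.0254) and kidney (r = 0.83, rho = 0.71, adjusted permutation P for r 0.0320), with r = 0.71 and 0.64 when the 2 most distant colons were left out. Neither passed without HF-low-suf colon replicate 5, with r = 0.77 and 0.71 (adjusted permutation P = 0.411 for both). Only 1 of 4 pancreas markers and 2 of 3 kidney markers were well above background on all colons, whereas G6pc was so on 12 of 12. The colon means of these 2 lists therefore include dim probes. The part of these lists in the values of Pcx and G6pc was not tested. With the adipose list in liver, r was -0.62 for Foxo1, -0.56 for Pklr, -0.19 for Fbp1, -0.17 for Irs1, 0.00 for G6pc, 0.16 for Pcx and 0.25 for Pck1, none past adjustment. Without HF-low-suf replicates 1 and 2 it was, in the same order, -0.03, -0.14, 0.10, -0.29, 0.53, 0.61 and 0.25, again none past adjustment.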

How the data were processed

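Each array has its own file. From the intensity columns that the authors deposited, the analysis took the mean signal of each spot in Cy3 and Cy5 and the median of its local background, from Feature Extraction, not normalized. The paper's methods name global loess and limma, and no background correction. Signals were background corrected with normexp (offset 50), 1639 control spots of 45018 and outlier spots were left out, and each array was loess normalized in limma 3.58.1 (R 4.3.3). Repeated spots were averaged to 41174 probes. Well above background means the Feature Extraction mark of that name in the Cy3 channel.

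Diets were tested in each tissue on 12 arrays, and tissues and their interaction with diet on 24 arrays, taking the mouse as random block (estimated correlation 0.158, statmod 1.5.0). P-values were adjusted over all probes. Single values were also tested by exact permutation (924 assignments of 12 mice, 4096 signs), and correlations with 100000 resamples (scipy 1.17.1). Replicates are separate mice. With 7 members measured there were 21 pairs. On simulated data with 200 probes changed by 2 on the log2 scale, adjustment recovered 95% of these in liver and 99% in colon. Both sets held 36748 probes, of which adjustment also called 14 and 4 unchanged ones. With the study's threshold, 188 unchanged probes were called in liver and 171 in colon. In sets of 5000 probes, adjustment recovered 100% between tissues and 98.5% for the interaction. The recovery of differences as small as those of the members between diets was not tested.

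The genes, lists and tests were chosen with earlier results of these data known. Named are all members, the list genes with the largest and smallest tissue difference, list genes past the diet threshold, markers beside a result, and the 3 genes most like each member, of which a few are not reported here. Ppp1r3c, Ugp2 and Mlxipl fall outside this rule and were chosen after their values were seen. Alternatives were other background corrections, normalizations, probe filters, blocks and left-out arrays. A difference that was not called counted as turned if its change of sign exceeded its SE.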

Additional observations from a re-analysis of the deposited data

Results flagged for a closer look

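In 36 sets of values, each a probe of a member in 1 tissue and diet, 3 had a lowest mouse set apart from the others by a gap above Dixon's critical value for 6. Chance gives about 1 in 20 such sets. All 3 were second probes. The second Irs1 probe, dim on most arrays, was at -0.54 in the liver of HF-low-low replicate 2. The second Foxo1 probe of HF-low-suf replicate 2 was at -0.25 in the colon and at 0.013 in the liver. No main probe of a member was set apart in this way.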

How the results depend on the processing

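The count of 6 members higher in liver, and of none called between diets or for the interaction, was the same under every alternative run. No pair of members passed adjustment over the livers except with median centring in place of loess, where 5 did, with r = 0.89 for G6pc and Fbp1 (adjusted permutation P = 0.0136) and -0.35 for Pck1 and G6pc. With outlier spots kept, r of G6pc and Fbp1 was -0.22. Median centring also turned the tissue difference of Foxo1 to -0.20 and the colon diet differences of G6pc and Fbp1 to 0.11 and 0.14. The second probes gave a diet difference of 0.13 for Irs1 in liver, on a probe well above background in 1 of 12 livers, and -0.014 for Foxo1 in colon. Within scan day 2 the liver diet differences of Pck1 and Pcx were 0.56 and 0.18, and within scan day 1 that of Pck1 in colon was -0.21. None of these differences was called, and the cause was not tested.

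Equal replicate numbers mark a shared slide. Over 9014 probes the deviations of same-numbered samples correlated at -0.06 to 0.78 in liver and -0.38 to 0.53 in colon, not every pair above 0.1, and not every sample correlated best with its own number. With the number as a replicate block, 6 members were higher in liver and 0 were called between diets in liver or colon, and Pck1 differed by -0.42 ± 0.47 (SE) in liver. With slide means removed, r of Pck1 and Pklr was -0.69, of G6pc and Fbp1 0.72 and of Pck1 and G6pc 0.14, with no test.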
